A study of Bos taurus and Ovis aries and Capra hircus with 9 samples.

Results

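The livers of sheep and goats were compared over the genes that these species share, with 3 RNA-seq libraries of sheep and 3 of goats out of the 9 libraries of the series. A gene of the sheep annotation and a gene of the goat annotation were taken as shared when they were reciprocal best matches by the lengths of their internal exons in order. At least 2 internal exons had to match, and at least 50% of the shorter of both exon lists. Gene order had to hold too, with 2 or more other pairs within 10 pairs on both genomes. This gave 10531 pairs, from 26478 genes in the sheep table and 27271 in the goat table. Cattle took no part in the matching, so that 607 of the pairs had no match in cattle by the same rule. Counts are not corrected for gene length, and the comparison is therefore described mainly over the 7361 pairs whose annotated exon length (Length) lay within 1.5-fold between the species.

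The sheep were Texel and the goats were Yunnan black goats, all adult, healthy and 2 to 3 years old, with 1 library per animal, here replicates A to C of a species. Liver was taken right after death and frozen in liquid nitrogen, mRNA was selected with Oligo(dT) beads, and the libraries were read as 150-bp pairs. Each species was represented by a single breed, so species, breed and husbandry cannot be told apart. The reads of each species were also mapped to and counted on a different genome, and that difference cannot be told apart from species either. Replicates were different animals, and p-values measure the spread among these 3 sheep and 3 goats. In bulk liver, fewer cells of a type and less RNA per cell cannot be told apart.

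The ruminant liver makes plasma proteins, bile acids and urea, takes up the propionate and acetate that leave the rumen, and makes most of its glucose from propionate and amino acids. Fatty acids are built mainly in adipose tissue in ruminants, whereas cholesterol is made in liver by the mevalonate pathway, in which acetyl-CoA is built up to squalene and sterols. Interferon-stimulated genes are held low in healthy tissue and are induced together by type I interferon.

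The libraries held 28332266 to 40784417 counts in sheep and 16507706 to 35647106 in goats, of which the shared genes held 64% to 66.9% and 58.7% to 63.5%. All values below are CPM, the count scaled to a common total after TMM scaling of the shared genes. At 3 counts a gene had between 0.113 and 0.152 CPM in a sheep library and between 0.15 and 0.239 in a goat library, a limit that covers counting error only. Spearman's rho was taken across the 8895 shared genes that passed the filter on low counts, which are not independent replicates. It was 0.941 to 0.978 within sheep, 0.887 to 0.951 within goats and 0.813 to 0.876 between species. Goat replicate C stood apart. Its 6 measured hepatocyte markers summed to 46938 CPM, against 175046 and 178754 in goat replicates A and B and 166867 to 238545 in sheep, and its TMM factor was 1.44, the highest of the 6. Results are therefore also given without this library where that changes a call or a count. ALB made up most of these sums, and the part of the lower marker levels of this library in the differences was not tested.

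Of 8895 shared genes that passed the filter on low counts, 1729 (19.4%) differed between sheep and goats at an adjusted p under 0.05 in the quasi-likelihood test of edgeR. Among the 6225 of them with Length within 1.5-fold, 876 (14.1%) differed, 528 of them higher in sheep (8.48% of those tested) and 348 higher in goats (5.59%). The fold was at least 2 for 855 of the 876 genes and at least 8 for 188. The sheep and goat libraries did not overlap for 848 of the 876, and for 31.9% of all 6225 genes. Over all shared genes tested, the libraries did not overlap for 37.3%. Over the genes within this window the median log2 fold change, sheep over goats, was 0.13, and the median of its size was 0.51. TMM scaling was set over all shared genes, where the median log2 fold change was 0.01. Without goat replicate C, 889 genes were called, of which 673 were called in the same direction with it. The count rested more on other libraries: it was 470 without goat replicate B, 489 without sheep replicate C and 501 without sheep replicate A.

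**Figure D1:**
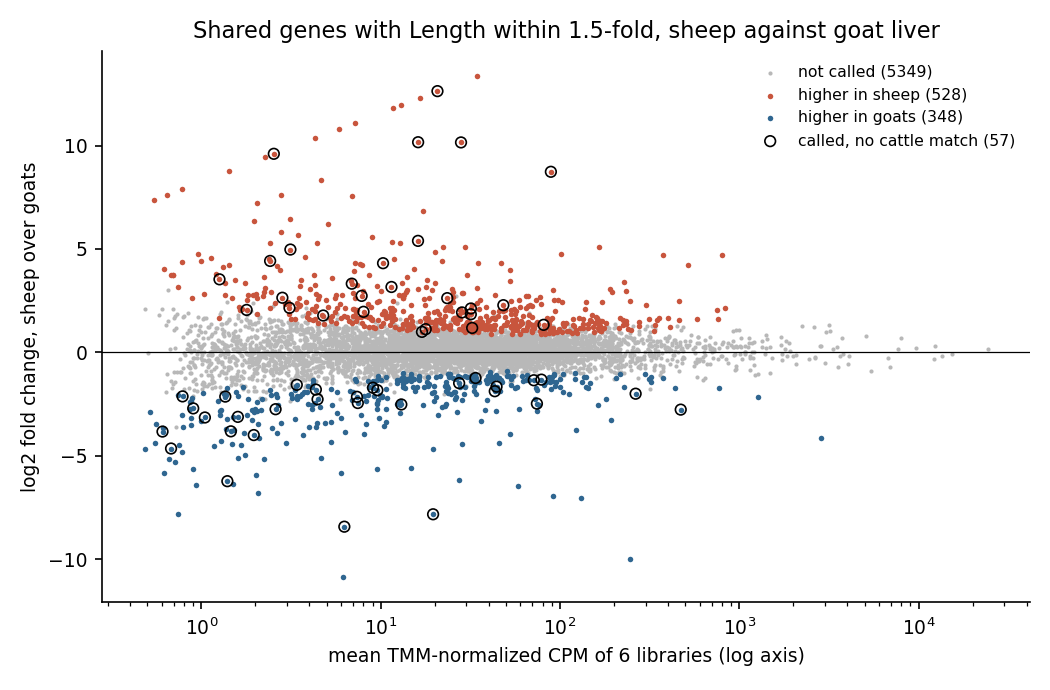
Log2 fold change of sheep over goats (y axis) against the mean TMM-normalized CPM of the 6 libraries (log x axis) for the 6225 shared genes with Length within 1.5-fold. Red and blue points are the 528 genes called higher in sheep and the 348 called higher in goats, grey points were not called, and black rings mark the 57 called genes without a cattle match.

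Called genes were spread over the range of expression and over the genome. In classes of 1245 genes, from the lowest mean CPM to the highest, the called share was 18.5%, 14.5%, 13.1%, 11.4% and 12.9%. In the lowest class, 111 genes were higher in sheep and 119 in goats, and in the highest class 109 and 52. By sheep chromosome with at least 50 genes tested, the called share ran from 9.38% (chromosome 5) to 21.9% (chromosome 26, 14 of 64 genes). On the X chromosome it was 12.1%. The called share was 15.3% for genes with 2 to 3 internal exons matched and 15.1% for genes with 16 or more.

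Outside the window, the direction of a call followed the gene models. Where the goat gene was the longer by more than 1.5-fold, 716 of 2038 genes were called, and 638 of these were higher in goats. Where the sheep gene was the longer, 137 of 632 were called, and 115 of these were higher in sheep. The median log2 fold change rose from -1.20 at a Length ratio (sheep over goat) up to 0.25 to 0.56 at a ratio of 2 to 4. The same slope was present inside the window, from -0.20 at ratios of 0.667 to 0.8 to 0.26 in the class just below 1.5. When annotated Length entered the fit as an offset, the share of called genes that were higher in sheep went from 41.7% to 64.5% over all shared genes, and from 60.3% to 57.2% within the window.

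**Figure D2:**
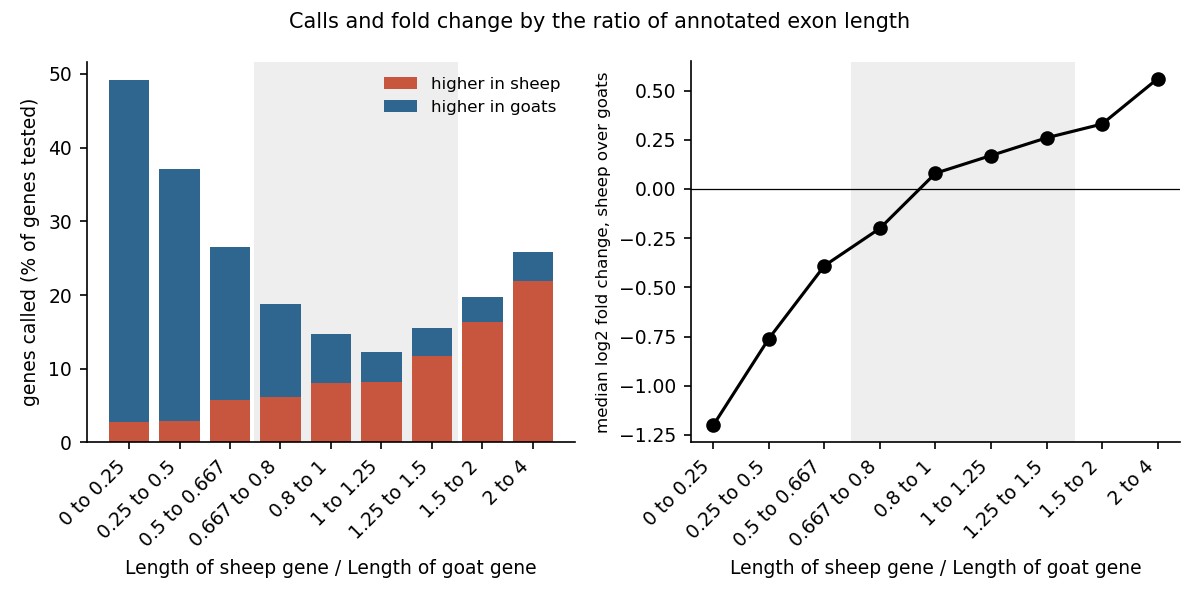
Left, genes called (% of genes tested, stacked by direction) and right, median log2 fold change of sheep over goats, by the ratio of annotated exon length of the sheep gene to that of its goat partner, in classes of at least 20 genes. The grey band is the window of 1.5-fold. Calls higher in goats dominate where the goat model is longer, and the median rises from -1.20 to 0.56 across the classes.

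Genes of cholesterol synthesis were among those higher in sheep. Of the 17 tested genes, 8 were called, all higher in sheep, and the median log2 fold change over the 17 was 1.67, against 0.01 over all shared genes, of which 19.4% were called and 8.11% called higher in sheep. The other 9 members were not called, among them SREBF2, the transcription factor that drives the pathway (0.33 ± 0.38, SE, edgeR adjusted p = 0.6). MSMO1, the most abundant member of the list, was not called either, and its log2 fold change was -0.10 without goat replicate C. The number called was 7 without goat replicate C, 4 without sheep replicate A, sheep replicate B or goat replicate B, and 12 without goat replicate A, always higher in sheep.

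HMGCS1, an early enzyme of the pathway, had 1283, 1020 and 641 CPM in sheep replicates A, B, and C and 106, 37.4 and 16.5 in goats. Every sheep library was above every goat library, and the log2 fold change was 4.2 ± 0.67 (SE, edgeR adjusted p = 0.0021), an 18.3-fold difference. Without goat replicate C, which was lowest, the log2 fold change was 3.74 and the call held.

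Some genes of later steps were called with smaller differences. DHCR7, the enzyme of the last step to cholesterol, had 321 to 491 CPM in sheep and 11.1 to 78.9 in goats (log2 fold change 3.41 ± 0.63, SE, edgeR adjusted p = 0.0042). FDPS, which makes farnesyl diphosphate, had 249.7 to 708 CPM in sheep and 56.3 to 92.2 in goats (2.5 ± 0.46, adjusted p = 0.0041). Also called were MVD, FDFT1, SQLE and HSD17B7, at log2 fold changes of 1.68, 1.67, 1.67 and 1.92, of which SQLE and HSD17B7 lay outside the Length window. Exons of another gene cover 48.9% of the exon bases of SQLE in goats. The calls of these 4 genes were lost without sheep replicate A, sheep replicate B or goat replicate B, and those of MVD (1.32) and FDFT1 (1.38) also without goat replicate C.

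Of 12 tested genes of fatty acid synthesis and triglyceride, 6 were called, 5 higher in sheep and 1 in goats, and 6 were not. The median log2 fold change was 0.96, and over all shared genes 19.4% were called and 8.11% called higher in sheep. FASN, the fatty acid synthase, was among the 6 most abundant genes that differed within the window, with 2430, 1622 and 544 CPM in sheep and 55.5, 67.6 and 52.8 in goats. The goat libraries lay close together while the sheep libraries spread over more than 4-fold, and the log2 fold change was 4.71 ± 0.59 (SE, edgeR adjusted p = 0.00055). With Length as an offset it was 5.27, because the goat model of FASN is the longer (Length ratio 0.675). Without goat replicate A, 10 genes of this list were called.

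The enzymes that supply acetyl-CoA differed in the same direction. ACSS2, which activates acetate, had 345, 488 and 203 CPM in sheep and 74.2, 40 and 23.1 in goats (log2 fold change 2.91 ± 0.50, SE, edgeR adjusted p = 0.0028). ACLY, which cleaves citrate, had 137, 140.1 and 67.3 CPM in sheep and 31.4, 19.4 and 23.2 in goats (2.22 ± 0.37, adjusted p = 0.0024). SCD, the desaturase that makes oleate, was higher in sheep at 4.61 ± 1.14 (adjusted p = 0.017), with 1288, 406 and 649.8 CPM in sheep and 82.8, 11.6 and 1.5 in goats. Its sheep model is 1.83 times as long as the goat model, and the call was lost without sheep replicate A or goat replicate B.

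Proteins of the lipid droplet differed in opposite directions. CIDEB, which loads lipid onto very-low-density lipoprotein, had 164 to 236 CPM in sheep and 4.73 to 9.72 in goats (log2 fold change 4.75 ± 0.39, SE, edgeR adjusted p = 3.7e-05). In the goat annotation 93.8% of the exon bases of CIDEB lie under exons of another gene, and in the sheep annotation none do. PLIN2, a coat protein of lipid droplets, was higher in goats, with 27.3, 61.4 and 76.4 CPM in goats and 14.3, 14.2 and 10.7 in sheep (-2.07 ± 0.40, adjusted p = 0.0048), outside the Length window.

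**Figure D3:**
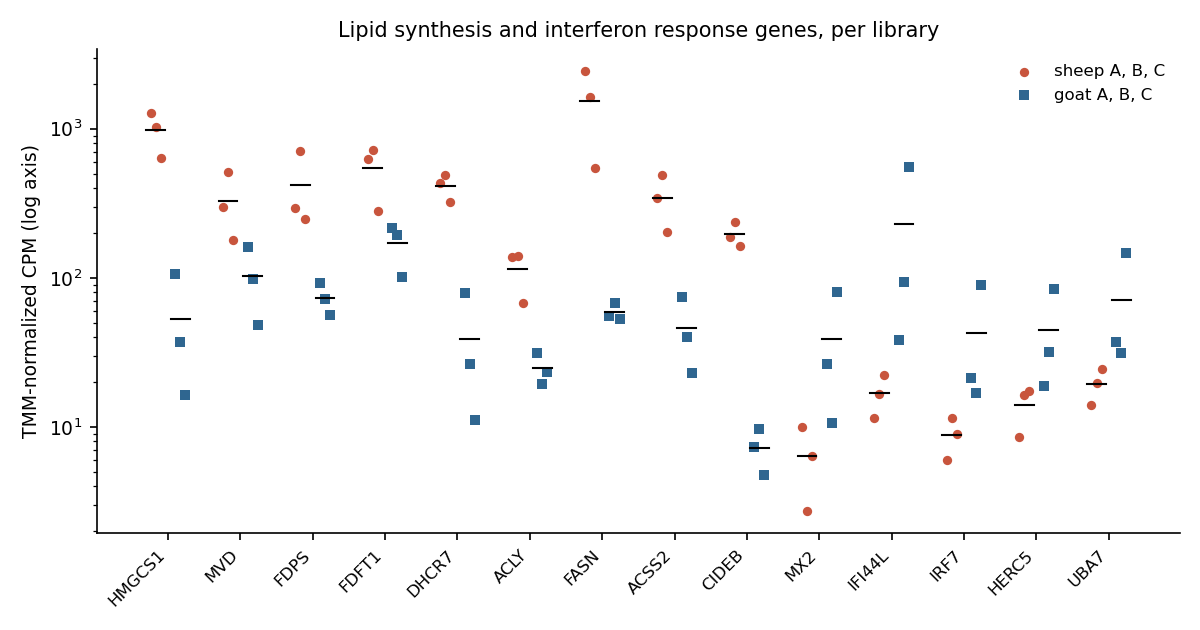
TMM-normalized CPM (log y axis) in each library of the genes of cholesterol synthesis (HMGCS1 to DHCR7), fatty acid synthesis and triglyceride (ACLY to CIDEB) and interferon response (MX2 to UBA7) that were called with Length within 1.5-fold and are described in the text. Red circles are sheep and blue squares goat replicates A, B, and C from left to right, and black bars are the means of 3. The lipid genes sit higher in all sheep libraries, and the interferon genes sit higher in all goat libraries, highest in goat replicate C.

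Of 20 tested genes of the interferon response, 8 were called, 7 higher in goats and 1 in sheep, with a median log2 fold change of -1.37, where 11.3% of all shared genes were called higher in goats. The list summed to 1468, 2074 and 7305 CPM in goat replicates A, B, and C and to 650.2, 866 and 926 in sheep. Goat replicate C was the highest library, and goat replicates A and B were above all sheep. That order of goat replicates A and B rested on IFI6, the most abundant member, which lies outside the Length window. In a sum without it, made after the values were seen, goats had 768, 764 and 2956 CPM and sheep 605, 719 and 803, so that goat replicates A and B lay within the range of sheep. Without goat replicate C, 5 genes were called, 3 higher in goats and 2 in sheep, and the median was -0.36. The number called was 3 without sheep replicate B or sheep replicate C, 4 without sheep replicate A and 12 without goat replicate A.

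IFI44L, an interferon-induced gene, had 38.4, 93.7 and 554 CPM in goats and 11.5, 16.7 and 22.2 in sheep (log2 fold change -3.77 ± 0.84, SE, edgeR adjusted p = 0.01). Without goat replicate C it was called at -2.0 (adjusted p = 0.012), and it was not called without sheep replicate B. MX2, an antiviral GTPase, and IRF7, the transcription factor that amplifies interferon production, were called at -2.61 and -2.27, and not without goat replicate C, at -1.57 (adjusted p = 0.091, edgeR) and -1.13 (adjusted p = 0.069). Outside the Length window, IFI6 had 699, 1311 and 4348 CPM in goats and 45, 147 and 123 in sheep. DTX3L, a ubiquitin ligase, had 69.1, 54.5 and 122 CPM in goats and 9.41, 4.14 and 8.71 in sheep. Both stayed called without goat replicate C, at -3.29 and -3.09. RIGI, a sensor of viral RNA, was higher in sheep in all libraries (1.27 ± 0.33, SE, edgeR adjusted p = 0.022), and is also outside the window. Its log2 fold change was 0.1 with Length as an offset, and its call was also lost without sheep replicate A, sheep replicate C or goat replicate B. The other members called were HERC5 (-1.67) and UBA7 (-1.88), both not called without goat replicate C, at -0.86 and -0.85. Without any 1 sheep library HERC5, UBA7 and IRF7 were not called, HERC5 was not called without goat replicate B, and MX2 was not called without sheep replicate B or sheep replicate C.

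Of 30 tested genes of the urea cycle and amino acid breakdown, 7 were called, 6 higher in sheep and 1 in goats, and the median log2 fold change was 0.14. This share, 23.3%, was near the 19.4% called over all shared genes. UROC1, the urocanate hydratase of histidine breakdown, had 1116, 1407 and 1112 CPM in sheep and 326, 317 and 242 in goats (2.04 ± 0.37, SE, edgeR adjusted p = 0.0038). HAL, the histidine ammonia-lyase that acts just before it in histidine breakdown, was called in the same direction, at 1.67, and not without sheep replicate A, sheep replicate C, goat replicate A or goat replicate C (1.43). GNMT, which consumes S-adenosylmethionine, had 20.5 to 40.6 CPM in sheep and 3.51 to 8.19 in goats (2.30 ± 0.42, adjusted p = 0.0041). AHCY, which splits the S-adenosylhomocysteine so formed, was among the 6 most abundant genes that differed, with 1997, 1281 and 794 CPM in sheep and 409.6, 336 and 183 in goats (2.13 ± 0.48, adjusted p = 0.011).

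ARG1, the arginase that releases urea, was the one member higher in goats, with 625, 1176 and 1748 CPM in goats and 359.9, 371 and 350.2 in sheep (log2 fold change -1.72 ± 0.44, SE, edgeR adjusted p = 0.019). Its call was lost without any 1 of the sheep libraries or goat replicate B, and exons of other genes cover 10% of its exon bases in sheep and 34.3% in goats. OTC, SLC25A15 and PRODH2 were called higher in sheep at 1.29, 1.29 and 1.19. OTC was not called without any 1 of the libraries other than goat replicate C, nor SLC25A15 without sheep replicate A, sheep replicate C, goat replicate B or goat replicate C, nor PRODH2 without sheep replicate A. OTC and SLC25A15 lie outside the window and were not called with Length as an offset (0.4 and 0.67). Without sheep replicate A, or without sheep replicate C, 3 genes of the list were called. Without goat replicate C, 6 were called, 4 higher in sheep and 2 in goats, ARG1 and KMO (-2.10).

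Of 11 tested clock genes, 4 were called (36.4%, against 19.4% over all shared genes), 2 higher in sheep and 2 in goats. ARNTL, the activator that pairs with CLOCK, had 48.9, 42 and 81.5 CPM in sheep and 13.1, 11.7 and 15.1 in goats (log2 fold change 2.11 ± 0.34, SE, edgeR adjusted p = 0.0022), and CLOCK was also higher in sheep (2.26, adjusted p = 0.011). NR1D2, a repressor of ARNTL, had 102, 134 and 84.5 CPM in goats and 21.8, 8.97 and 27.8 in sheep (-2.45 ± 0.42, adjusted p = 0.0029). CIART, a repressor of the CLOCK and ARNTL pair, was higher in goats at -3.26 (adjusted p = 0.0015). The list had 6 called without goat replicate C. Of the 4 genes ARNTL alone lay in the Length window, and CLOCK was not called with Length as an offset (1.08). The hour at which animals died is not given in the sources used here, and its part was not tested.

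ABCG5 and ABCG8, which form one transporter that sends sterols into bile, were the called genes among 13 of bile acid synthesis and transport (15.4%, against 19.4% over all shared genes). Both were higher in goats. ABCG8 had 138, 140.5 and 105 CPM in goats and 57.8, 44.5 and 41.5 in sheep (log2 fold change -1.41 ± 0.29, SE, edgeR adjusted p = 0.0071), and ABCG5 was called at -1.68 (adjusted p = 0.023), though not without sheep replicate B, sheep replicate C or goat replicate B. The list had 5 called without goat replicate C, 4 without goat replicate A and 1 without goat replicate B. Their genes lie next to each other on sheep chromosome 3 (85683151 to 85700991 for ABCG8 and 85701349 to 85733580 for ABCG5) and on goat chromosome 11. Sheep positions are those of Oar_rambouillet_v1.0 throughout, and goat positions those of ARS1.

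Of 11 liver transcription factors, 2 were called higher in sheep and 1 in goats, and of 11 genes of iron and heme 1 and 2. Both shares, 27.3%, were not far from the 19.4% called over all shared genes. The xenobiotic receptor NR1I2 was higher in sheep at 1.18, with 187 to 207 CPM in sheep and 73.5 to 98.5 in goats, and ESRRA, which drives mitochondrial genes, was higher in goats at -1.35. Of 11 genes of cytochrome P450 and conjugation, CYP39A1 was called besides NR1I2, higher in sheep at 1.82. Of the iron and heme genes, TFRC and SLC40A1, which import and export iron, were higher in goats at -1.87 and -1.23, and the heme enzyme UROS was higher in sheep at 1.37. With Length as an offset the log2 fold changes of ESRRA (-0.35), TFRC (-0.34), SLC40A1 (0.09) and CYP39A1 (0.88) were not called. The transcription factor list had 1 called without sheep replicate A, sheep replicate C or goat replicate B, where the call of NR1I2 was lost. UROS was not called without goat replicate B, TFRC without that library or sheep replicate C, and SLC40A1 without that library or any 1 sheep library. The iron list had 0 without goat replicate B, 1 without sheep replicate C and 5 without goat replicate C. The P450 list had 4 without goat replicate C and 1 without sheep replicate A, sheep replicate C or goat replicate B.

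Many hepatocyte products were not called. The called shares of the lists in this paragraph ran from 3.7% to 12.5%, against 19.4% over all shared genes. Of 19 secreted plasma proteins 1 was called, APOB, of which the sheep model holds 0.144 of the Length of the goat model. Of 27 genes of complement and coagulation, F11 alone was called, higher in goats with 87.1 to 196 CPM against 49.2 to 54.6 in sheep (-1.45 ± 0.34, SE, edgeR adjusted p = 0.013), and 9 were called without goat replicate C. The call of F11 was lost without sheep replicate A, sheep replicate C or goat replicate B. ALB, the most abundant plasma protein, had 149041, 204180 and 141262 CPM in sheep and 139295, 142690 and 35067 in goats, and only goat replicate C lay clearly below the sheep libraries. The Length of its sheep model is 0.277 of that of the goat model. Of 27 proteasome genes PSMC6 was called (-1.10), and of 16 heat shock and unfolded protein genes HSP90AB1 (1.08) and ASNS (1.5), all 3 outside the window. Exons of another gene cover 61.9% of the exon bases of HSP90AB1 in goats, and its call was lost without any 1 of the 6 libraries, that of ASNS without sheep replicate B or any 1 goat library. The heat shock list had 6 called, all higher in goats, without goat replicate C and 0 without sheep replicate B or goat replicate B. The proteasome list had 3 without goat replicate C, 2 without goat replicate A and 0 without any 1 of the other 4 libraries. PSMC6 turned to 0.48 with Length as an offset. ACSS2 was the only 1 of 12 genes of propionate and odd-chain metabolism that was called, and 4 were called without goat replicate C.

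HP, the plasma protein haptoglobin that binds free hemoglobin, was the only called gene among 7 of the acute phase (14.3%, against 19.4% over all shared genes). It was also the most abundant gene that differed within the window. The acute phase list had 2 called without goat replicate C. HP had 143, 64.5 and 702 CPM in sheep and 11588, 4014 and 635 in goats (log2 fold change -4.16 ± 1.10, SE, edgeR adjusted p = 0.023). Sheep replicate C was above goat replicate C, so the groups overlapped. The call was lost without sheep replicate A, sheep replicate B or goat replicate A, and with the replicate letter as a block in the fit.

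Of 19 tested genes of fatty acid oxidation and ketogenesis and 13 of gluconeogenesis and glycogen, 0 were called by edgeR, against 19.4% over all shared genes. At an unadjusted p under 0.05 there were 2 and 1, and DESeq2 called 2 and 1. Among the most abundant genes of oxidation and ketogenesis, ECHS1, ACAA2 and ACAA1 had log2 fold changes of 1.09, -0.47 and -1.09. Of the 19, 3 were called without goat replicate C, all higher in goats, and 1 without goat replicate A, higher in sheep. The 4 most abundant of gluconeogenesis and glycogen, PCK2, GCGR, GOT1 and PC, had 0.19, -0.57, 0.63 and -0.25. Of 7 genes of the growth hormone and IGF axis edgeR called 0, with 1 at an unadjusted p under 0.05 and 1 called by DESeq2. The 4 most abundant, IGFBP4, IGFBP1, GHR and PRLR, had log2 fold changes of 1.17, 2.1, 0.26 and 0.49. Without sheep replicate A, goat replicate A or goat replicate B, 1 gene of this list was called.

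**Figure D4:**
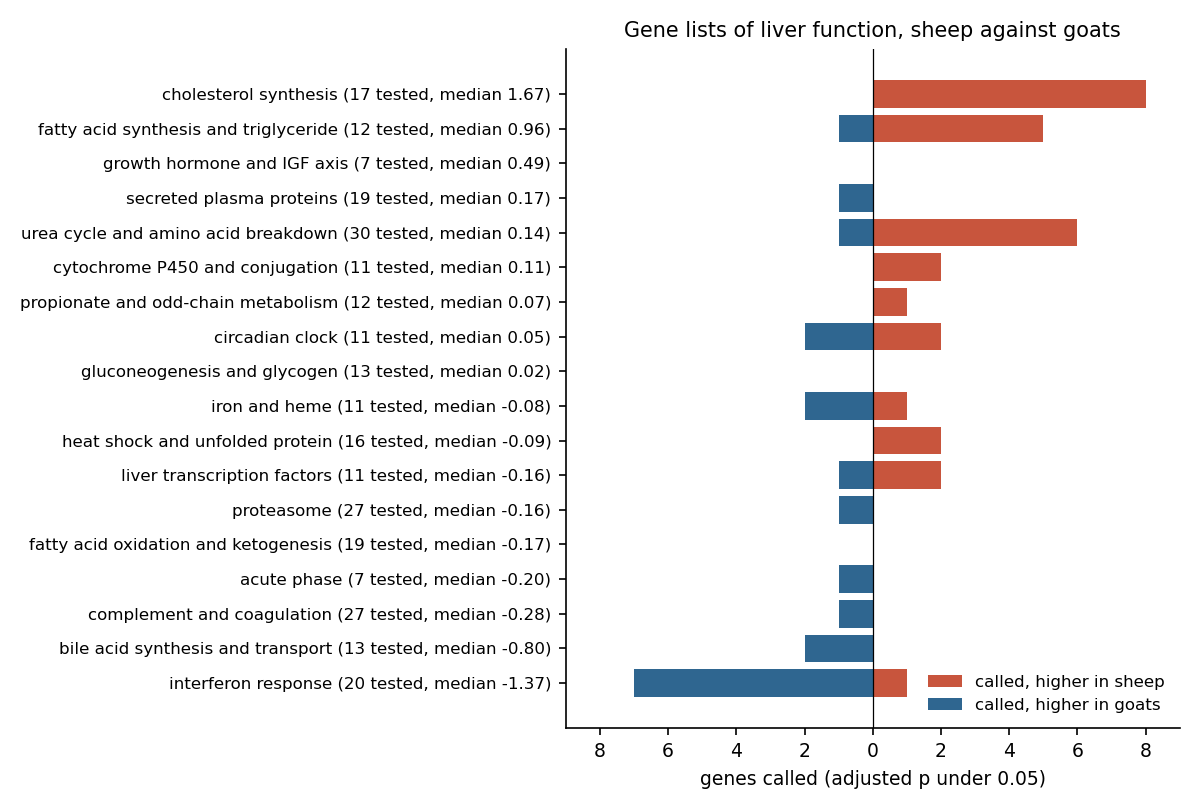
Number of genes called (x axis) higher in sheep (red, to the right) and higher in goats (blue, to the left) in each of 18 lists of liver function, ordered by the median log2 fold change of sheep over goats of their tested members. Cholesterol synthesis lies at the top with 8 called higher in sheep, and interferon response at the bottom with 7 called higher in goats.

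Called markers of other cell types are given beside the 19.4% called over all shared genes. Of 3 measured stellate cell and fibroblast markers, COL1A1 and PDGFRB were higher in sheep at 1.47 and 1.24. RELN, the most abundant of the 3, was not called, and its log2 fold change was -0.01 without goat replicate C. The list summed to 177 to 255 CPM in sheep and 86.7 to 158 in goats. Of 4 markers of proliferating cells, TOP2A, CCNB1 and TYMS were higher in goats, with sums of 17.9 to 18.4 CPM in sheep and 36.2 to 69.6 in goats, and edgeR called 0 of them without goat replicate C or any 1 sheep library, 1 without goat replicate B and 4 without goat replicate A. At an unadjusted p under 0.05 there were 4 with all 6 libraries, and DESeq2 called 4. PDGFRB was not called without sheep replicate A, sheep replicate C, goat replicate B or goat replicate C. VWF among 6 endothelial markers was higher in goats at -1.44, and was not called without any 1 sheep library. The endothelial list summed to 356 to 464 CPM in sheep and 205 to 617 in goats. Without goat replicate C 2 of its members were called, VWF higher in goats and STAB2, the most abundant, higher in sheep at 1.77. Of 3 macrophage and Kupffer cell, 4 bile duct, 4 T and NK cell markers and 1 of neutrophils 0 were called by edgeR. At an unadjusted p under 0.05 the bile duct list had 1 and the other 3 lists 0, and DESeq2 called the same numbers. The fat cell markers PLIN1 (-3.31) and CIDEC (2.38) went in opposite directions at levels of at most 15.4 CPM and were not called with Length as an offset (-1.8 and 1.64), and erythroid and skeletal muscle markers had 0 tested genes.

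Beyond the lists, 632 genes of the window were called, had libraries that did not overlap and reached a mean of 10 CPM in at least 1 species, 407 of them higher in sheep and 225 in goats. The 8 largest differences in each direction are described here. Of the 8 toward sheep, 7 had 0 counts in all 3 goat libraries, so that their folds are lower bounds, set against 3 counts in a goat library. PREB, a regulator of export from the endoplasmic reticulum, had 75.3, 79.2 and 52.6 CPM in sheep and was at least 289-fold higher. PIP4P1, a phosphatase of phosphoinositides, had 31.1 to 36 CPM and was at least 138-fold higher. FBXL15, an F-box protein, had 15.9 to 33.5 CPM (at least 97.6-fold), and SMPD2, a sphingomyelin phosphodiesterase, 9.3 to 14.5 CPM (at least 48.8-fold).

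Exon overlap went with these zeros. In the goat annotation, exons of another gene cover 96.2% of the exon bases of PREB and 100% of those of PIP4P1, FBXL15, SMPD2, ENSOARG00020009576 and ENSOARG00020013904, whereas the sheep models of these 6 genes have none. Over all shared genes with 0 counts in goats and a mean of at least 10 CPM in sheep, 8 of 10 had more than 50% of their goat exon bases covered in this way, against 41 of all 10531 shared genes. The exceptions were LOC528518, between QDPR and KIAA0232 on chromosome 6 of both species, with 6.54, 13.4 and 23.2 CPM in sheep (at least 60.2-fold higher), and ENSOARG00020003492, outside the Length window. When the genes with any exon overlap were left out of the fit, 768 of 5747 genes within the window were called.

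The largest differences toward goats came without exon overlap in either annotation. KRT23, a keratin, had 0 counts in all sheep libraries and 21.4, 15.3 and 0.215 CPM in goats, the last being 3 counts in goat replicate C. The mean in goats was at least 80.9-fold higher. VNN1, a pantetheinase that recycles pantothenate and lies in a cluster with related genes, had 495, 676 and 307 CPM in goats and 0.945, 0.41 and 0 in sheep (log2 fold change -10.01 ± 0.92, SE, edgeR adjusted p = 7.8e-05). The sheep gene lies between AKAP7 and ARG1 and its goat partner between STX7 and VNN2 among the named shared genes, so that reads or matches may be divided among the relatives, which was not tested.

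RARRES1, a gene induced by retinoids, lies between MFSD1 and GFM1 in both species and had 244, 167 and 132 CPM in goats against 0.718, 2.05 and 1.57 in sheep (log2 fold change -6.97 ± 0.50, SE, edgeR adjusted p = 2.1e-05). ANO9, a member of the anoctamin family of membrane proteins, lies between PTDSS2 and SIGIRR in both species. It had 92, 130.1 and 125 CPM in goats and 0.832, 1.46 and 1.72 in sheep (-6.44 ± 0.41, adjusted p = 1.2e-05). For both genes the 3 libraries of a species lay close together and far from the other species, and per kilobase of Length ANO9 had 0.559 CPM in sheep and 39.6 in goats.

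The remaining named genes of this direction were RPL34 and SFTPA1, beside a pair of genes without a cattle match given below. RPL34, a ribosomal protein whose family has many processed copies, had 325, 308 and 142 CPM in goats and 2.49, 2.14 and 1.32 in sheep, and reads may be divided among such copies, which was not tested. SFTPA1, a collectin of surfactant, had 4.29, 18.1 and 139 CPM in goats and at most 1.82 in sheep, and its call was lost without sheep replicate A.

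A further pair of abundant genes completed the set of the 6 most abundant that differed. SPP2, a phosphoprotein secreted by the liver, had 2049, 2878 and 1292 CPM in goats and 419, 696 and 264 in sheep (log2 fold change -2.17 ± 0.50, SE, edgeR adjusted p = 0.011). RPSA, a protein of the small ribosomal subunit that also has processed copies, had 893, 1618 and 901 CPM in sheep and 483, 362 and 284 in goats (1.59 ± 0.42, adjusted p = 0.021). The call of SPP2 was lost without sheep replicate A or sheep replicate C, and that of RPSA without sheep replicate B or goat replicate B.

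The 607 shared genes without a cattle match were shorter models than those matched in cattle, and fewer of them were expressed. Their median number of internal exons matched was 4, against 9 for the 9589 pairs matched in cattle, and their median Length was 1451 nt in sheep and 1890 nt in goats, against 1981 and 2388 nt. In the filter on low counts 432 passed (71.2%, against 85.7%). They held 4.91% to 5.51% of the counts on shared genes in sheep libraries and 5.19% to 6.23% in goat libraries.

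These genes were scattered. They fell into 568 stretches along the sheep genome, of which 531 were single genes and 2 held 3 genes, among them one between CD163 and WC1-10 on chromosome 3 (223009423 to 223206262). For 483 of the 607, the shared genes on either side had cattle partners on one cattle chromosome within 1 Mb of each other. In 471 of these intervals the cattle annotation listed at least 1 gene model without a partner among the shared genes, and in 440 one with 2 or more internal exons. Intervals around genes matched in cattle were not counted, so these numbers do not show that such models are the missing partners. Whether a gene without a match by exon lengths is absent from cattle was not tested. Since names came through the cattle partner, these genes are given by their identifiers and their named neighbours.

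Of the 432 tested genes without a cattle match, 108 (25.0%) differed between sheep and goats, 39 higher in sheep (9.03%) and 69 in goats. With Length within 1.5-fold, 57 of 265 (21.5%) differed, 27 higher in sheep (10.2%) and 30 in goats (11.3%). Without sheep replicate C, 37 of these genes were called. For the 5804 tested genes matched in cattle within the window the share was 13.5%, and the difference between these shares was not tested. The median size of the log2 fold change was 0.70 without and 0.50 with a cattle match. Exon overlap touched 4 of the 57, and 2 had 0 counts in all libraries of 1 species.

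**Figure D5:**
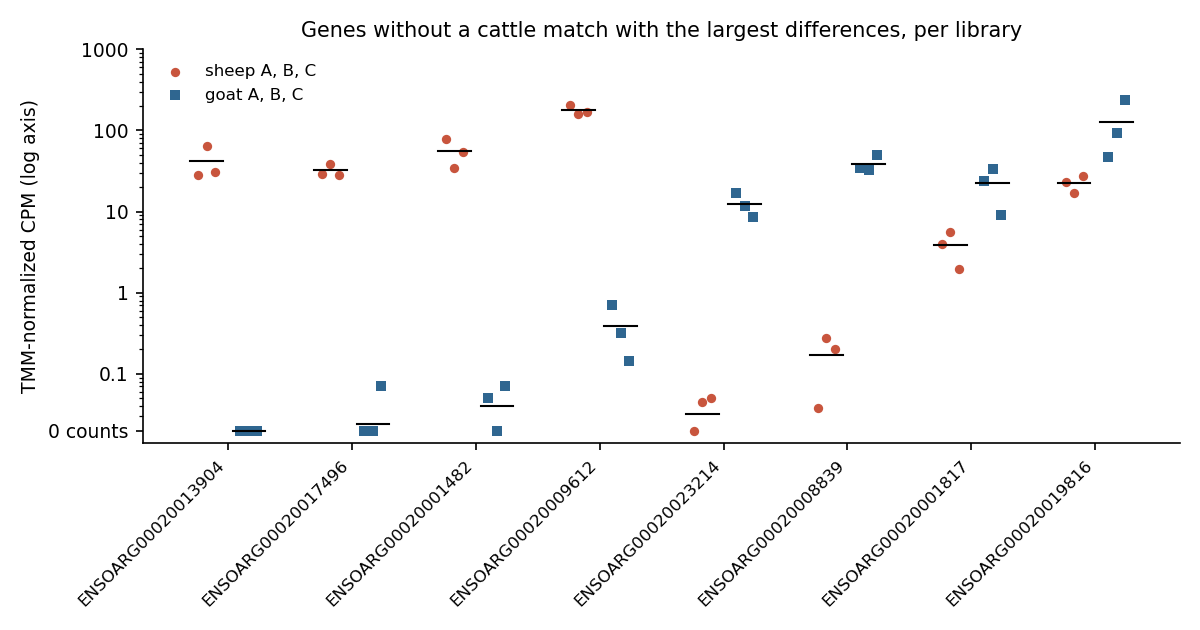
TMM-normalized CPM (log y axis, with libraries at 0 counts drawn on the line so labelled) in each library of the genes without a cattle match that differed most with Length within 1.5-fold, 4 higher in sheep and 4 higher in goats. Red circles are sheep and blue squares goat replicates A, B, and C from left to right, and black bars are the means of 3, with means under 0.02 drawn on the line of 0 counts. For the 4 genes higher in sheep the goat libraries stay under 1 CPM.

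ENSOARG00020009612 was the most abundant of the strong differences. It had 205, 157 and 170.2 CPM in sheep and 0.699, 0.319 and 0.143 in goats (log2 fold change 8.73 ± 0.53, SE, edgeR adjusted p = 1.2e-05). It lies between DUSP8 and TOLLIP on sheep chromosome 21 (51938805 to 51986135) and, as ENSCHIG00000013468, on goat chromosome 29 (51047087 to 51097040), with 19 internal exons matched and no exon overlap. All sheep libraries lay far above all goat libraries.

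ENSOARG00020001482, between EFCAB14 and CYP4X1 on sheep chromosome 1 (22124537 to 22137950) and goat chromosome 3 (21540496 to 21553802), had 78.9, 34.7 and 54.5 CPM in sheep and 2 counts in the 3 goat libraries together. The ratio was 1304, with an exact 95% Poisson interval of 361 to 10766 that covers counting error only (edgeR adjusted p = 1.2e-05). ENSOARG00020017496, between F8 and TMLHE on the sheep X chromosome (86575162 to 86637384) with its goat partner on an unplaced scaffold, had 29.4, 38.9 and 28.6 CPM in sheep and 1 count in goats. Its ratio was 1505, with an interval of 270.0 to 59427. ENSOARG00020013904, next to PHF1 on sheep chromosome 20 (9297901 to 9299476), had 28.4, 64.9 and 31 CPM in sheep and 0 counts in goats, at least 173-fold higher, and is one of the genes fully overlapped in the goat annotation.

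Toward goats, ENSOARG00020008839 had 34.1, 32.6 and 50.3 CPM in goats and 0.0378, 0.273 and 0.202 in sheep (log2 fold change -7.83 ± 0.58, SE, edgeR adjusted p = 2.1e-05). It lies between WRNIP1 and GMDS on sheep chromosome 20 (54361990 to 54426367) and goat chromosome 23 (1429888 to 1497117). ENSOARG00020023214, next to QRFPR on chromosome 6 of both species, had 17.1, 11.8 and 8.6 CPM in goats and 2 counts in the 3 sheep libraries, a ratio of 426 with an exact Poisson interval of 118 to 3515. It was matched by 2 internal exons, the fewest the rule allows.

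ENSOARG00020019816 lies beside IFI44L, between it and ADGRL4, on sheep chromosome 1 (59212870 to 59228207) and goat chromosome 3 (55187651 to 55206452). It had 47.3, 92.6 and 238 CPM in goats and 23.3, 17.1 and 27.5 in sheep (log2 fold change -2.48 ± 0.52, SE, edgeR adjusted p = 0.008), with the same order of goat libraries as IFI44L. Without goat replicate C it was called at -1.65 (adjusted p = 0.012). ENSOARG00020001817, after TCAF1 on chromosome 4, had 24.1, 33.4 and 9.1 CPM in goats and 3.97, 5.6 and 1.97 in sheep (-2.52 ± 0.54, adjusted p = 0.0086).

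The most abundant genes without a cattle match were not called. ENSOARG00020018944, between ORM1 and ZNF618 on sheep chromosome 2 (9983529 to 9996062) and goat chromosome 8 (103011899 to 103024021), had 9407, 18770 and 9746 CPM in sheep and 17823, 17209 and 7804 in goats (log2 fold change -0.18 ± 0.52, SE, edgeR adjusted p = 0.85). ENSOARG00020010251, between SERPINA1 and SERPINA3-8 on sheep chromosome 18, had -0.49 ± 0.62 (adjusted p = 0.63), and the Length of its sheep model is 0.259 of that of the goat model. ENSOARG00020023642, between TFAM and COG2 on sheep chromosome 25, had 0.68 ± 0.44 (adjusted p = 0.32), and was called at 2.26 with Length as an offset. ENSOARG00020006230, between MROH2A and USP40 on sheep chromosome 1, had 3182, 4662 and 3138 CPM in sheep and 1766, 2135 and 741 in goats. Its libraries did not overlap, and it was not called in the main test (1.24 ± 0.48, adjusted p = 0.099) but was with DESeq2, with library totals and with Length as an offset.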

How the data were processed

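Liver RNA-seq of 3 sheep and 3 goats was analysed, and samples were grouped by their labels. The authors trimmed the reads (Trimmomatic 0.39, per their processing notes), mapped them with STAR 2.7.6, allowing at most 3 mismatches, to the Ensembl 103 genomes Oar_rambouillet_v1.0 and ARS1, and counted them with featureCounts. What the authors deposited are raw counts per gene with exon positions and exon length. Whether the counting used strand or read pairs is not given in the sources used here.

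Pairs of genes were scored on ordered internal exon lengths, as a share of both genes' mean weight, and the best had to exceed the next by 1.05 times. With goat exons dealt out at random the rule found 32 pairs. On an altered copy of the sheep annotation it recovered 88.2% of genes, with 6 wrong of 10384 pairs. Names came from a RefSeq table of cattle (ARS-UCD2.0), matched by position to cattle gene models of ARS-UCD1.2 with at least 50% overlap: 3574 of 15804 cattle genes of 4 or more exons shared an exact gene end with a RefSeq gene, against 5 after a shift of 1000 nt. Of the pairs, 9327 were named. Exon overlap was counted on either strand.

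Counts were normalized by TMM, filtered at a CPM above 1 in at least 2 of 6 libraries and tested with robust quasi-likelihood fits in edgeR 4.0.16 (R 4.3.3), 6 libraries in one fit, adjusted by Benjamini-Hochberg over all 8895 genes at 0.05. On simulated counts for 8779 genes, with 200 changed 4-fold between sheep and goats, it called 143 of these and 11 others, and DESeq2 1.42.0 called 164 and 33 others. Replicate libraries differed by 79.5 or more in chi-square per degree of freedom, so none was a repeated deposit.

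The genes named are, within 1.5-fold in Length, called, not overlapping and at a mean of at least 10 CPM in a species, the 8 largest differences in each direction, and the same for 4 without a cattle match. To these were added the 6 most abundant that differed within this Length, overlapping or not, and the 4 most abundant without a cattle match at any Length, called or not. Of each list, the 2 members of lowest p in each direction were to be named, or the 4 most abundant where none passed. Further called members, SREBF2, MSMO1, RELN and ALB were named after their values were seen. Members and lists were chosen with earlier results of these data known. Cattle libraries entered 1 alternative fit. Some genes that the rule names are not reported here. Other data of the study were not analysed here.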

Additional observations from a re-analysis of the deposited data

Results flagged for a closer look

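Counts on genes outside the shared set took no part in the comparison. They were 34.2% ± 1.57 (SD, n = 3) of all counts in sheep and 38.6% ± 2.46 in goats. These genes had no partner by the rule on exon lengths and gene order and were not analysed here.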

How the results depend on the processing

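Within 1.5-fold in Length, the 876 genes called became 527 with library totals in place of TMM and 570 at Length within 1.2-fold (of 4250 genes tested), and leaving out 1 library gave 470 to 1078. Over all shared genes, the 1729 calls became 1092 with library totals, and 1043 to 2030 without 1 library, lowest without goat replicate B. With Length as an offset, 1095 of 1697 calls over all shared genes were higher in sheep, against 721 of 1729. The 57 of 265 genes without a cattle match became 28 of 212 when every library had to pass the filter. With that filter 604 of 5541 genes of the whole window were called. The 57 became 34 of 172 at Length within 1.2-fold, and 37 to 67 without 1 library. The other alternatives moved none of these 3 counts by more than 1.5 times: DESeq2, RLE factors, no filter, at least 4 internal exons, no exon overlap, all 9 libraries (not run for genes without a cattle match), a 2-fold minimum and the offset. Of 1274 refits of 84 named or listed genes, 1103 kept their direction and side of the threshold and 162 lost the call, 5 gained one and 4 turned in direction: ENSOARG00020010251 at 1.46 with the offset and between -0.95 and 0.21 without 1 library, above 0 without goat replicate A, and PSMC6 (0.48) and SLC40A1 (0.09) with the offset, which adds the difference in Length to the fold. For the other changes the cause was not tested. Whether replicate letters mark a shared source is not given in the sources used here and was not tested. The deviations of same-letter libraries correlated at 0.266 (A), 0.285 (B) and 0.0213 (C), and those of different letters at -0.263 to 0.0928. Replicates A and B correlated best with their own letter, and replicates C correlated better with another letter. With the replicate block 1086 genes were called within the window, 2042 over all shared genes and 72 without a cattle match. Of the genes named, HP (-4.68) and HSP90AB1 (1.06) were not called with the block, and ENSOARG00020006230 (1.35) was. After TMM scaling, goat replicate B had the highest level at 3 counts (0.239 CPM) and thus set the limits on genes at 0 counts in goats.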
